A study of Mus musculus with 13 samples.

Results

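Oxidative phosphorylation subunit genes were described in haematopoietic stem cells (HSCs) of mice without and with MEK1, treated with 5-fluorouracil (5-FU) or not. The genes were chosen by name alone. All protein-coding genes were taken whose symbol is of the Nduf, Sdh, Uqcr, Cox, Atp5, Cyc1 or Cycs series or marks a protein-coding gene of mitochondrial DNA (mt-). Of 100 such genes in the GENCODE M21 annotation, 93 were among the 13201 genes of the deposited table, and 7 were not in it. The 7 were Ndufa4l2, Cox6a2, Cox7a1, Cox7b2, Cox8b, Cox8c and a second identifier named Atp5o. The 93 genes comprised 80 nuclear and 13 mitochondrial genes. The nuclear genes held 36 of complex I, 4 of complex II, 9 of complex III, the cytochrome c gene Cycs, 13 of complex IV and 17 of complex V. The mitochondrial genes held 7 of complex I, 1 of complex III, 3 of complex IV and 2 of complex V. The rule itself uses no measured value, but it was set with earlier results of these data known. All 93 genes passed the filter on low values.

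The study compared sorted bone marrow HSCs from MEK1-deficient (KO) and wild-type (WT) mice within each treatment, and 5-FU-treated with untreated mice. MEK1, encoded by Map2k1, is a kinase that activates ERK, and 5-FU is an antimetabolite that kills dividing blood cells. Polyadenylated RNA of 100 sorted cells per library was sequenced by Smart-seq2, a full-length cDNA method that does not mark the strand.

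The groups were 3 libraries of KO HSCs from 5-FU-treated mice (A5, A6 and A8), 4 of WT HSCs from 5-FU-treated mice (A2, A3, A4 and D4), 3 of KO HSCs from untreated mice (D4, D5 and D6) and 3 of WT HSCs from untreated mice (D1, D2 and D3). They are called 5-FU KO, 5-FU WT, untreated KO and untreated WT libraries, and per-library values within a group follow the order of its names. Neither the labels nor the design text name the KO allele, a Cre driver, the sort gate, the 5-FU dose, the sampling time or the age of the mice. They also leave unsaid whether each library had its own animal, and the p-values then cover only variation from library to library, part of which may be technical. The design text counts 1 technical repeat among the untreated WT samples, and untreated WT D1 was sequenced on 2 flowcells.

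The mitochondrial respiratory chain passes electrons from NADH (complex I) and succinate (complex II) to ubiquinone, on through complex III and the mobile carrier cytochrome c, and to oxygen at complex IV. The proton gradient that complexes I, III and IV build drives the ATP synthase, complex V. Mitochondrial DNA encodes core membrane subunits of complexes I, III, IV and V, whereas complex II, cytochrome c and all other subunits come from nuclear genes and are imported. HSCs at rest are known for low respiration, and their entry into the cell cycle is known to be accompanied by mitochondrial activation.

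Libraries held 11416753 to 25380570 reads in genes, apart from 45384866 in untreated WT D1. Map2k1 averaged 364.0 ± 83.8 normalized counts in 5-FU KO and 1099 ± 584 in 5-FU WT libraries, and 635 ± 105 in untreated KO and 1262 ± 449 in untreated WT libraries (SD), so the KO libraries kept reads of the gene. In 5-FU WT libraries Map2k1 had 604 in A2, 1634 in A3, 584 in A4 and 1573.5 in D4. A2 and A4 thus lay within the untreated KO range of 545 to 750, and above the 5-FU KO range of 304 to 460. Which exons the deletion removes is not named in the labels. Among 5-FU WT libraries, A3 and D4 were nearly alike, with a Pearson correlation of 0.988 across genes against 0.936 to 0.945 for the other pairs of that group. They are labelled as separate samples and were counted as separate libraries throughout, but whether they are independent is not known. D4 is labelled as acquired in 2015 with the untreated cells and was sequenced on the other flowcell, while the other 5-FU libraries are labelled 2016. Summed counts of 9 megakaryocyte genes were 4748 to 7526 in 5-FU KO and 31449 to 54753 in 5-FU WT libraries, and 4112 to 7641 in untreated KO and 3724 to 5743 in untreated WT libraries. Sums of 12 HSC genes were 10974 to 11837 in 5-FU KO and 16161 to 21206 in 5-FU WT libraries, and 23478 to 26306 in untreated KO and 25537 to 33348 in untreated WT libraries.

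Promoters of nuclear members were read from RefSeq (GRCm38.p6) as the 250 bases before and 50 after the gene start. Of the 80 nuclear members, 66 matched an entry. They were searched on both strands for the core letters of 4 motifs that are known from promoters, of which NRF1, ETS (the family of GABP) and YY1 are known from respiratory chain genes. GCGCATGCG of NRF1 occurred in 13.6% of the 66 members and in 1.95% of 27025 promoters. CCGGAAG, an ETS core, occurred in 24.2% of the members and 9.93% of all promoters. AAGATGGCG of YY1 occurred in 10.6% of the members and 1.64% of all promoters, and the TATA-box letters TATAAA in 7.58% of the members and 15.7% of all promoters. The 66 members held 46 matches, and the 5 pairs that overlapped were NRF1 letters read on both strands. Among the 25 matched members that were higher in 5-FU KO than in 5-FU WT libraries, the ETS letters were found in 5, those of NRF1 and YY1 in 2 each and TATAAA in 0. Among the 41 other matched members ETS was found in 11, NRF1 in 7, and YY1 and TATAAA in 5 each. A match is a description of letters in this window and not a site. To show where the letters lie, the promoters are given of 4 members that hold a match and were higher in 5-FU KO than in 5-FU WT libraries, Cycs (chr6:50566520-50566819), Sdhd (chr9:50603800-50604099), Uqcr11 (chr10:80406772-80407071) and Ndufs6 (chr13:73328433-73328732), each on the minus strand and read in the direction of the gene. Capitals mark the NRF1 letters in Cycs, the ETS letters in Sdhd, the ETS and then the NRF1 letters in Uqcr11, and the YY1 letters in Ndufs6, in each case on either strand.
Cycs: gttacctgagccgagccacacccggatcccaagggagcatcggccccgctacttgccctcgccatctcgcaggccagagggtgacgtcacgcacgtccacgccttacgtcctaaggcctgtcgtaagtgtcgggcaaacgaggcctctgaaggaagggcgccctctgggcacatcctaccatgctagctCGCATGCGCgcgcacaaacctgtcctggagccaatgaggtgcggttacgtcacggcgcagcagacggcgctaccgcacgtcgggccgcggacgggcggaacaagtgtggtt
Sdhd: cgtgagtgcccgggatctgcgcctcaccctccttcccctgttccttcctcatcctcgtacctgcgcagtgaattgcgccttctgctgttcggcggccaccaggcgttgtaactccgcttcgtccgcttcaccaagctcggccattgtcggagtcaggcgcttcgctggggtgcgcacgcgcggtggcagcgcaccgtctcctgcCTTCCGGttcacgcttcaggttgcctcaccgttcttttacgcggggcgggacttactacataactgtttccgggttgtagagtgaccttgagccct
Uqcr11: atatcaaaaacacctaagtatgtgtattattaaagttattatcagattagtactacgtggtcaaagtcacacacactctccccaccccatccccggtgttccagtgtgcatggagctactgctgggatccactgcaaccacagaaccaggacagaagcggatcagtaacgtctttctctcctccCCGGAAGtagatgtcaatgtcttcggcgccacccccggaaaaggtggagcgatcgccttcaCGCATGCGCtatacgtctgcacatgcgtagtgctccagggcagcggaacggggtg
Ndufs6: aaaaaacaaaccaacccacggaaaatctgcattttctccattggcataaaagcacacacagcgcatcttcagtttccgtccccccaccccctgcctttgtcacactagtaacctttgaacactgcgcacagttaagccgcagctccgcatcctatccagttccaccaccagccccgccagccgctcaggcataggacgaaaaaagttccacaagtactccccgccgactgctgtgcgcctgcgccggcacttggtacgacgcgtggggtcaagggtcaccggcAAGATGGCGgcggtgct

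Levels were compared between genes as normalized counts per kb of exon, averaged over the 13 libraries. A normalized count here is the read count recovered from the authors' deposited log2-scale values, divided by the authors' scaling factor of the library. The mitochondrial genes had a median of 50487 per kb, against 2374 per kb for the nuclear genes. mt-Co1, the catalytic core subunit of complex IV, stood at 206573 per kb and had the highest count of all genes in every library. It was followed by mt-Cytb at 123996, mt-Co3 at 113350.3 and mt-Atp8 at 106343 per kb, and mt-Nd3 was the lowest mitochondrial gene at 3651 per kb. Among nuclear genes Cox8a was highest at 14354 per kb, and the highest of the other complexes were Ndufb9 at 6217, Sdhd at 5913, Uqcr11 at 5921 and Atp5b at 8949 per kb. The lowest of each complex were Atp5l at 144, Cox6b2 at 147, Ndufb2 at 179.9, Sdhc at 603 and Uqcrq at 845 per kb, and Cycs had 379.9 per kb. Levels per kb use the summed exons of all annotated transcripts, so a gene with long, little used exons is listed lower.

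The nuclear members varied little between libraries of a group. Their median coefficient of variation was 7.89% in 5-FU KO, 16.5% in 5-FU WT, 13.3% in untreated KO and 12.4% in untreated WT libraries. For the mitochondrial members it was 11.6% in 5-FU KO, 12.1% in 5-FU WT, 18.4% in untreated KO and 13.7% in untreated WT libraries. Over all genes tested, which mostly have lower counts, the same measure was 27.2% in 5-FU KO, 34.2% in 5-FU WT, 34.3% in untreated KO and 40.5% in untreated WT libraries.

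**Figure D1:**
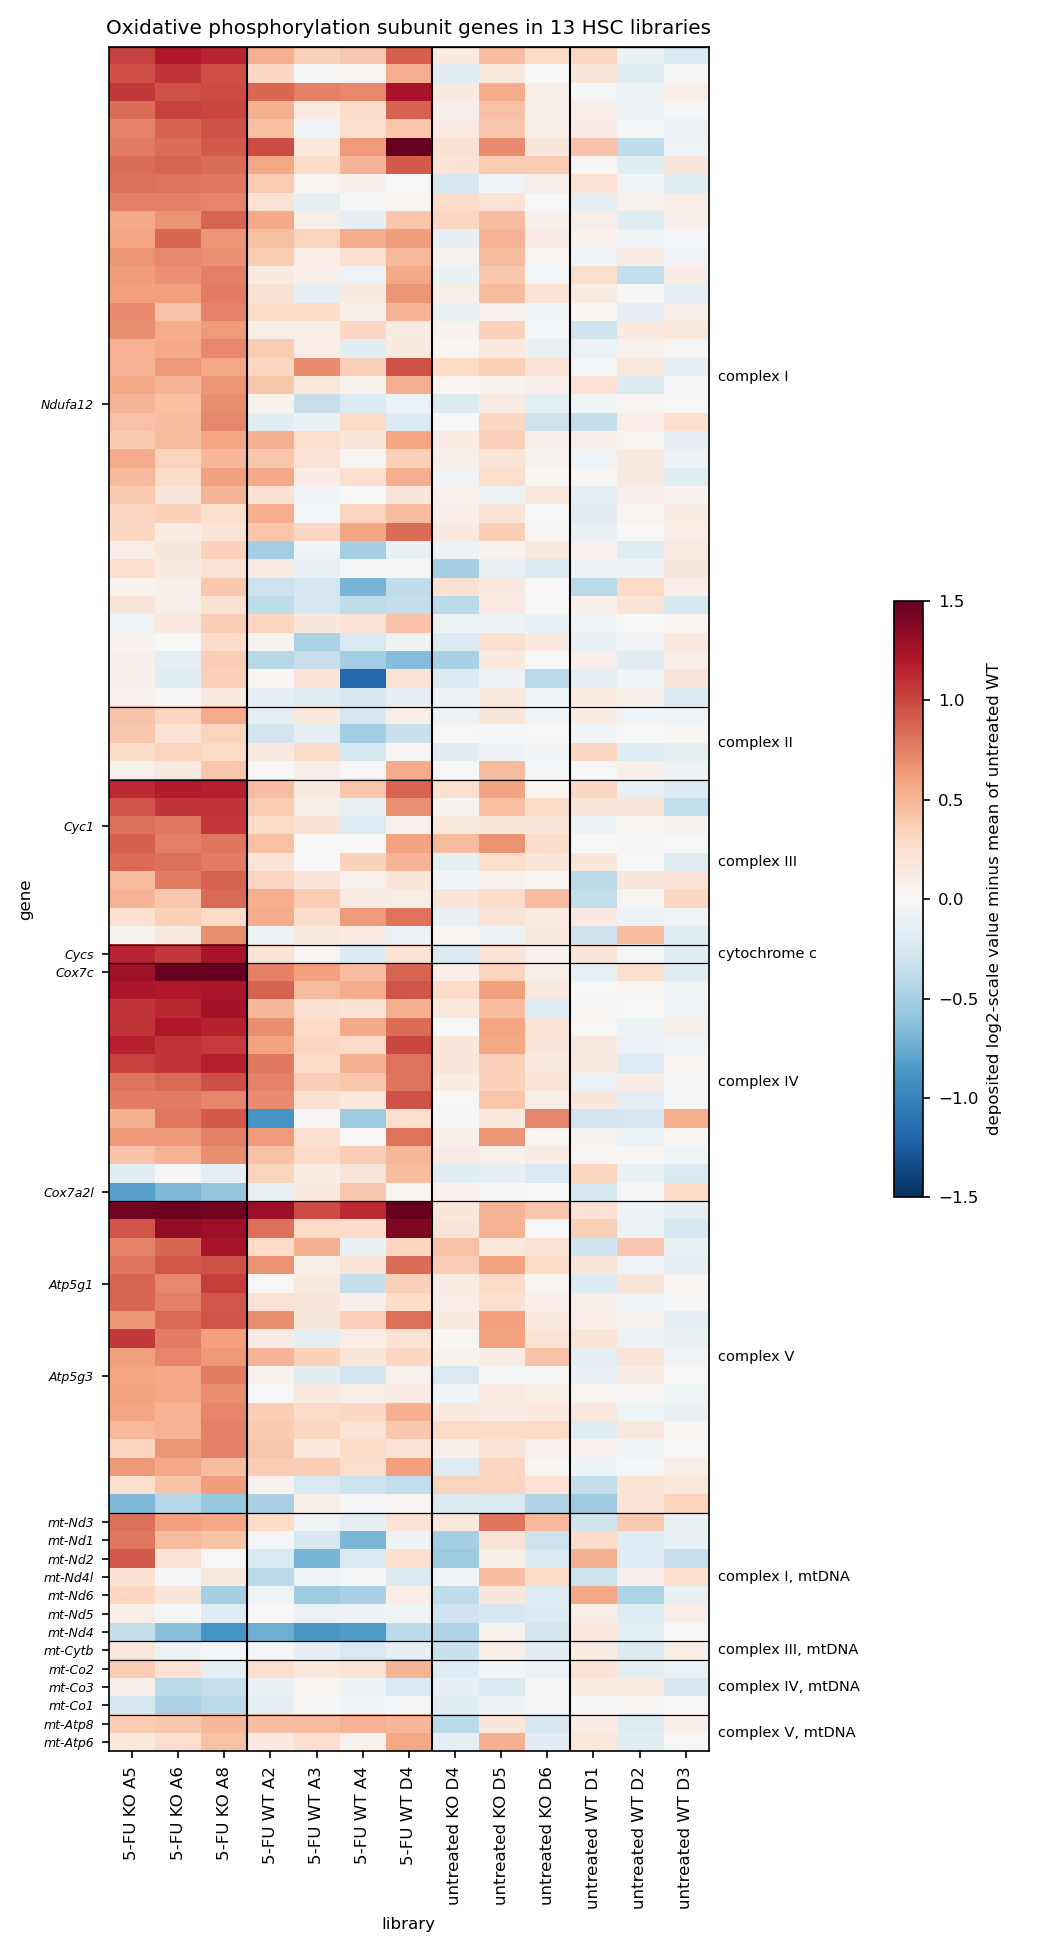
Heat map of the 93 oxidative phosphorylation subunit genes (rows, by complex and genome and then by their mean in 5-FU KO libraries, with the mitochondrial and a few nuclear genes named) in the 13 libraries (columns), as the deposited log2-scale value minus the mean of the 3 untreated WT libraries, with colours saturating at the ends of the scale. Most nuclear rows are red in the 5-FU KO columns, the Cox7a2l row is blue there, and the mitochondrial rows show no common colour.

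Summed over genes, nuclear subunit genes took a larger share of reads in 5-FU KO libraries than in any other library, and mitochondrial ones did not. The 80 nuclear genes held 3.00% ± 0.0421 of the reads of 5-FU KO libraries (SD, n = 3, range 2.97 to 3.05%) and 2.26% ± 0.168 in 5-FU WT libraries (n = 4, 2.08 to 2.42%). They held 2.14% ± 0.127 in untreated KO (n = 3, 2.06 to 2.28%) and 1.99% ± 0.0498 in untreated WT libraries (n = 3, 1.94 to 2.04%). The 5-FU KO range lay above all others, and the ranges of 5-FU WT and untreated KO libraries overlapped. The 13 mitochondrial genes held 4.79% ± 0.656 in 5-FU KO, 4.94% ± 0.0782 in 5-FU WT, 4.80% ± 0.389 in untreated KO and 5.38% ± 0.582 in untreated WT libraries, with overlapping ranges. The ratio of mitochondrial to nuclear reads was therefore 1.60 (1.39 to 1.85) in 5-FU KO and 2.20 (2.07 to 2.32) in 5-FU WT libraries, and 2.25 (2.13 to 2.34) in untreated KO and 2.70 (2.49 to 2.95) in untreated WT libraries. These are shares within each library, so fewer cells of a type and less RNA per cell cannot be told apart in such bulk samples.

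**Figure D2:**
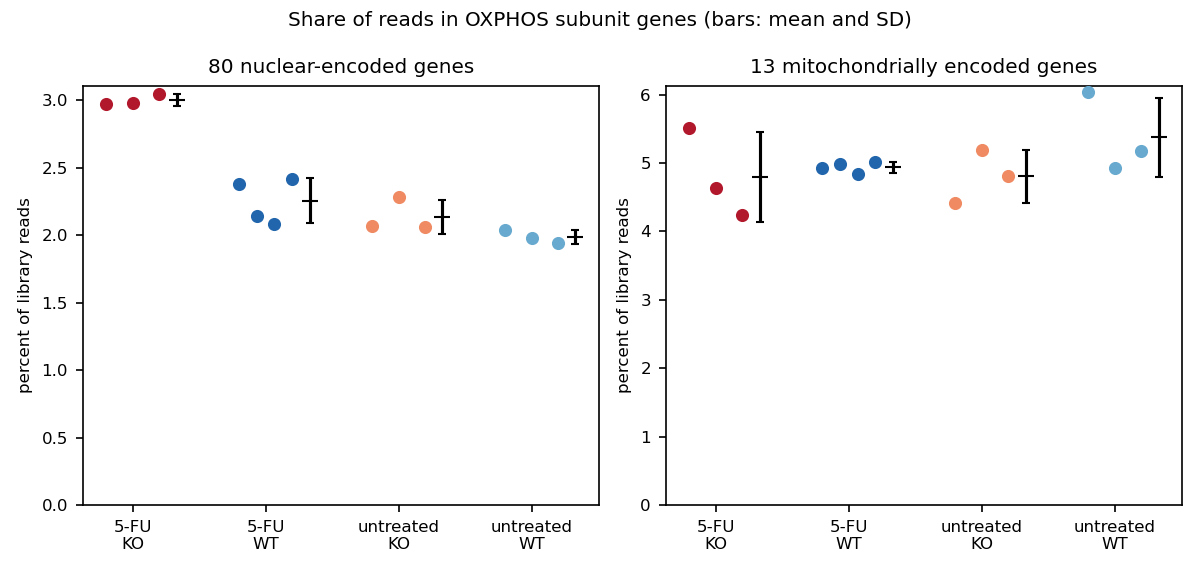
Percent of each library's reads in the 80 nuclear-encoded and the 13 mitochondrially encoded subunit genes, with 1 point per library and bars for the group mean and SD. The 3 nuclear shares of 5-FU KO libraries (2.97 to 3.05%) lie above all others (1.94 to 2.42%), while the mitochondrial shares of the groups overlap.

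By complex, the nuclear genes of complex V held 1.08% ± 0.0369 of reads in 5-FU KO and 0.739% ± 0.0511 in 5-FU WT libraries. Those of complex I held 0.828% ± 0.0103 in 5-FU KO and 0.645% ± 0.0665 in 5-FU WT libraries. For complex IV the shares were 0.542% ± 0.00999 in 5-FU KO and 0.461% ± 0.0493 in 5-FU WT libraries. Complex III genes held 0.374% ± 0.0155 in 5-FU KO and 0.287% ± 0.0173 in 5-FU WT libraries, and complex II genes 0.160% ± 0.00611 in 5-FU KO and 0.119% ± 0.0134 in 5-FU WT libraries (SD, n = 3 KO and 4 WT). The ranges of the KO and WT libraries after 5-FU did not overlap in any of these complexes. Mitochondrial genes of complex I held 1.06% ± 0.2 in 5-FU KO and 0.763% ± 0.0797 in 5-FU WT libraries. Those of complex IV held 2.46% ± 0.359 in 5-FU KO and 2.97% ± 0.0907 in 5-FU WT libraries, the opposite direction. Both were without overlap, though for complex IV the KO maximum of 2.857% nearly met the WT minimum of 2.86%. Mitochondrial shares of complexes III and V overlapped. In untreated cells complex V genes held 0.750% ± 0.0235 in KO and 0.666% ± 0.0409 in WT libraries, and complex IV genes 0.380% ± 0.0345 in KO and 0.346% ± 0.0190 in WT libraries (SD, n = 3 each).

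After 5-FU, 34 of the 93 members were higher and 2 were lower in KO than in WT HSCs. Calls were made with limma over 12846 genes at a Benjamini-Hochberg adjusted p under 0.05. Over all these genes, 5.36% were called higher and 5.5% lower, or 10.9% in either direction. The nuclear members gave 33 of the higher calls and 1 of the lower ones (Cox7a2l), and the mitochondrial ones gave mt-Nd1 as higher and mt-Co1 as lower. The median log2 difference was 0.46 over the nuclear and 0.09 over the mitochondrial members, against -0.02 over all genes tested. In 44 nuclear members every KO library lay above every WT library and in 3 every KO library lay below, against 13.2% and 13.8% of all genes. Higher calls numbered 11 of 36 in complex I, 2 of 4 in complex II, 6 of 9 in complex III, 6 of 13 in complex IV and 7 of 17 in complex V, with medians of 0.37, 0.36, 0.55, 0.48 and 0.45. In this comparison 6.08% of all genes with a mean count of 500 to 2000 were called higher, against 20.4% at 2000 to 8000. Like levels were therefore set side by side. Of nuclear members with a mean count of 2000 to 8000, 42.3% (22 of 52) were called higher, against 20.4% of all genes in that range. The log2 differences refer to the variance-stabilized values as deposited and are compressed for low genes, and folds are ratios of mean normalized counts.

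**Figure D3:**
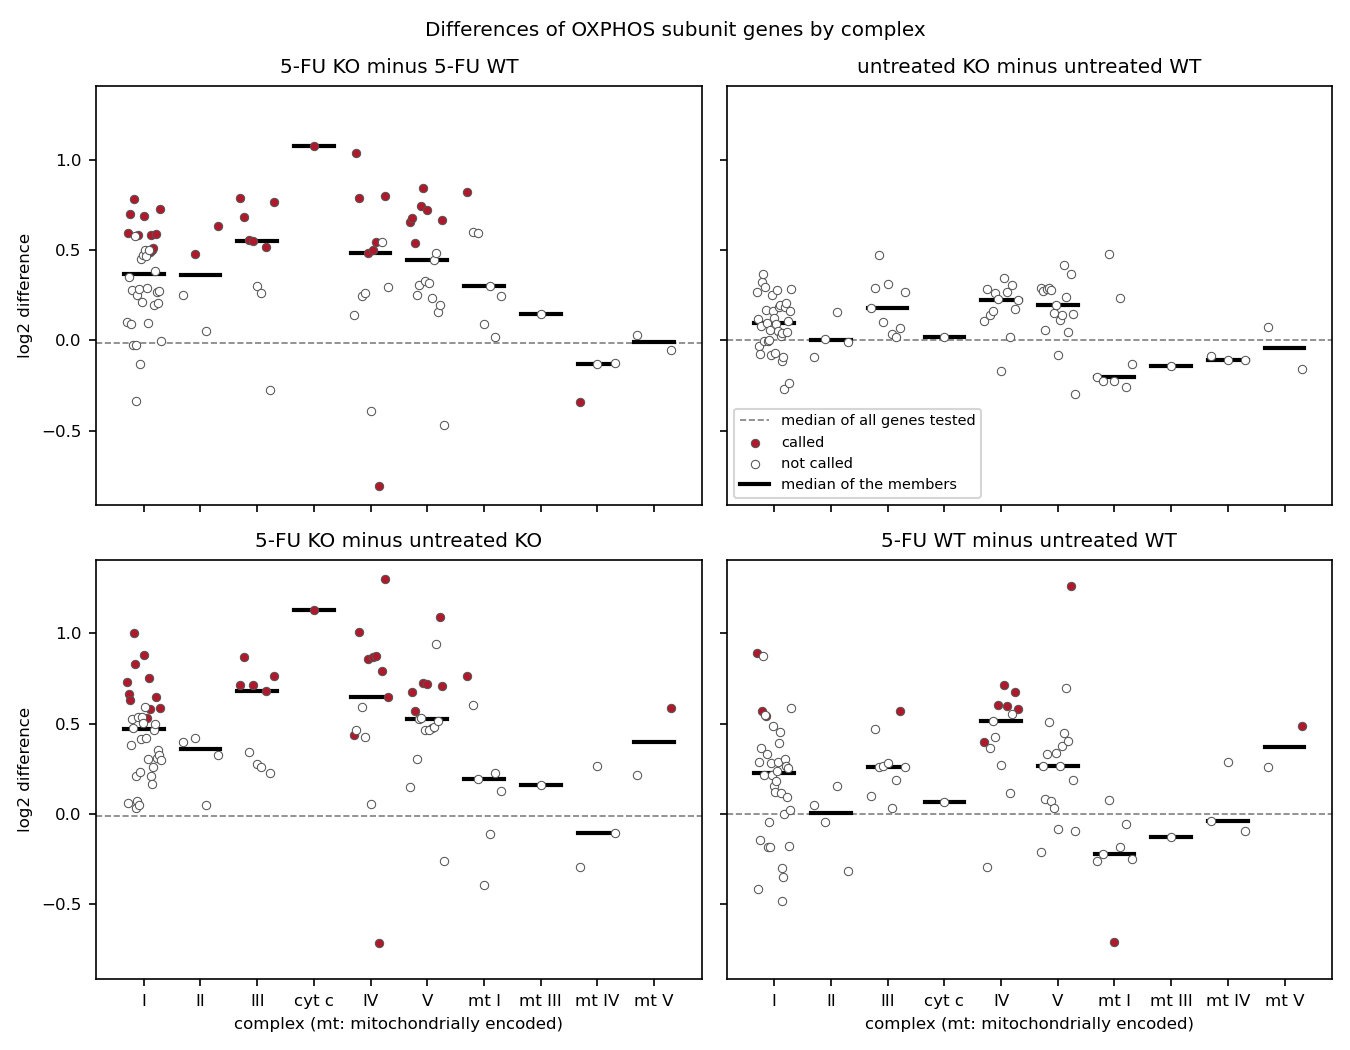
Log2 difference of each subunit gene (points, filled red where called at an adjusted p under 0.05) by complex and genome in 4 comparisons, with the median of the members as a bar and the median of all genes as a dashed line. After 5-FU, KO minus WT, 34 members are called higher and 2 lower, and in untreated cells none is called.

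In complex I, which takes electrons from NADH, the 11 higher members comprised core and accessory subunits. Ndufv2, an iron-sulphur subunit of the NADH-oxidising module, had 7135, 7146 and 7022 in 5-FU KO libraries, against 4808, 3630.3, 4005 and 4184 in 5-FU WT libraries. All KO libraries lay close together above the WT ones (1.71-fold, log2 difference 0.73 ± 0.13 (SE), adjusted p = 0.00154). Ndufa4, grouped here by its name although it is also regarded as a subunit of complex IV, had 8792, 9466 and 8759.6 in 5-FU KO libraries, against 5424, 4227, 4447 and 6485 in 5-FU WT libraries, again without overlap (1.75-fold, log2 difference 0.78 ± 0.15 (SE), adjusted p = 0.00278). Ndufa12, an accessory subunit, had 4839, 4619.8 and 5579 in 5-FU KO libraries, against 3407, 2502, 2804 and 3079 in 5-FU WT libraries. The groups were apart (1.70-fold, log2 difference 0.70 ± 0.14 (SE), adjusted p = 0.00345), and 1 pseudogene of the annotation shares at least 95% of 200 or more bases with it. Ndufb5, an accessory subunit of the membrane arm, had 3813, 3792 and 3726 in 5-FU KO libraries, against 2699.7, 2046, 2122 and 1998 in 5-FU WT libraries, and its KO values were all above the WT ones (1.70-fold, log2 difference 0.69 ± 0.15 (SE), adjusted p = 0.00682). Of its exon bases, 12.3% overlap Mrpl47 on the other strand.

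Further higher genes of complex I were Ndufs6, Ndufa10, Ndufa9, Ndufs1, Ndufs3 and Ndufc2, with log2 differences of 0.49 to 0.59 and adjusted p of 0.0236 to 0.0483. Ndufs1, the largest core subunit of the NADH-oxidising module, had 2292, 1895 and 2872 in 5-FU KO libraries, against 1503, 1615, 1404 and 1231 in 5-FU WT libraries, and the KO values were wider apart than those of Ndufv2 but did not reach the WT ones. Ndufs6, an accessory subunit whose promoter with the YY1 letters is printed above, had 2634, 2936 and 3101 in 5-FU KO libraries, against 2086, 1375, 1756 and 2018 in 5-FU WT libraries, also without overlap. The highest and lowest nuclear complex I genes per kb were not called. Ndufb9 had 6913, 7328 and 7995 in 5-FU KO libraries, against 7646, 6290.0, 5898 and 7943 in 5-FU WT libraries (log2 difference 0.10 ± 0.14 (SE), adjusted p = 0.716), and Ndufb2 had 1326, 1337 and 1517 in 5-FU KO libraries, against 934, 643, 859 and 1383 in 5-FU WT libraries (log2 difference 0.45 ± 0.19 (SE), adjusted p = 0.157), with overlapping groups in both. Ndufv1, the flavin-binding partner of Ndufv2, had 1985, 1624 and 2486 in 5-FU KO libraries, against 1907, 2216, 629 and 2222 in 5-FU WT libraries, with WT A4 far below the rest (log2 difference 0.27, adjusted p = 0.592).

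Complex II, succinate dehydrogenase, also belongs to the tricarboxylic acid cycle and is wholly nuclear-encoded. Sdhd, a membrane anchor of the complex, had 9826, 8523 and 9281 in 5-FU KO libraries, against 5986, 6614, 4976 and 5712 in 5-FU WT libraries, with all KO libraries above the WT ones (1.58-fold, log2 difference 0.63 ± 0.12 (SE), adjusted p = 0.0021). Sdhb, the iron-sulphur subunit, had 9011, 8413 and 9893 in 5-FU KO libraries, against 5966, 7397, 5449 and 7041 in 5-FU WT libraries and was likewise apart (1.41-fold, log2 difference 0.48 ± 0.13 (SE), adjusted p = 0.0268). Sdha, the flavoprotein, had 6164, 6440.4 and 6295 in 5-FU KO libraries, against 5545, 6229, 4179 and 5179 in 5-FU WT libraries, and WT A3 lay inside the KO range (log2 difference 0.25 ± 0.15 (SE), adjusted p = 0.32). Sdhc, the other anchor and the lowest of the complex per kb, had 1834, 1944 and 2447 in 5-FU KO libraries, against 1729, 1857, 1732 and 2719 in 5-FU WT libraries, and WT D4 exceeded every KO library (log2 difference 0.05 ± 0.18 (SE), adjusted p = 0.9).

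Among electron carriers between complexes III and IV, Cycs, the soluble cytochrome c whose promoter is printed above, showed the largest called log2 difference of the nuclear members. It had 2447, 2279 and 2619.8 in 5-FU KO libraries, against 1097, 949, 749 and 1116 in 5-FU WT libraries. The lowest KO library held more than every WT library (2.50-fold, log2 difference 1.08 ± 0.17 (SE), adjusted p = 0.000619). In untreated cells Cycs had 734, 1105 and 967 in untreated KO libraries, against 1076, 891 and 781 in untreated WT libraries, with mixed groups. The annotation holds 3 pseudogenes nearly identical to Cycs, and the labels do not say how reads shared with such copies were counted. Cyc1, the cytochrome c1 subunit of complex III, had 8317, 8141 and 9868 in 5-FU KO libraries, against 5672, 5380.3, 3912 and 4776 in 5-FU WT libraries. Its KO libraries were all above the WT ones (1.78-fold, log2 difference 0.79 ± 0.13 (SE), adjusted p = 0.00106).

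The other higher genes of complex III were Uqcrq, Uqcr10, Uqcr11, Uqcrb and Uqcrfs1. Uqcrfs1 encodes the Rieske iron-sulphur protein and had 5162, 6407 and 6987 in 5-FU KO libraries, against 4621, 4178, 3798 and 4142 in 5-FU WT libraries (1.48-fold, log2 difference 0.52 ± 0.16 (SE), adjusted p = 0.0439), without overlap. The small subunit gene Uqcrq, lowest of the complex per kb, had 2322, 2592 and 2589.9 in 5-FU KO libraries, against 1464, 1129.9, 934 and 1891 in 5-FU WT libraries (1.85-fold, log2 difference 0.77 ± 0.20 (SE), adjusted p = 0.0218), with WT D4 the nearest to the KO libraries. Uqcr10, another small subunit, had 3602, 3806 and 3739.8 in 5-FU KO libraries, against 2158, 1644, 2062 and 2987 in 5-FU WT libraries (1.68-fold, log2 difference 0.69 ± 0.19 (SE), adjusted p = 0.029). Here too WT D4 was nearest and the groups did not overlap. Uqcr11, with the ETS and NRF1 letters in the promoter printed above, had 5435, 4919 and 5055 in 5-FU KO libraries, against 3859, 2755, 2739 and 4360.5 in 5-FU WT libraries (1.50-fold, log2 difference 0.56 ± 0.16 (SE), adjusted p = 0.0339). Its KO libraries lay above all WT ones. The core proteins Uqcrc1 and Uqcrc2 had log2 differences of 0.30 and 0.26 and were not called (adjusted p = 0.267 and 0.409). The hinge protein gene Uqcrh had 6264, 6831 and 6585 in 5-FU KO libraries, against 7944, 6441, 8410.5 and 9572 in 5-FU WT libraries, and its log2 difference of -0.28 did not pass (adjusted p = 0.229).

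Complex IV, cytochrome c oxidase, held genes that moved in both directions. Cox5a, a subunit on the matrix side, had 8105, 8447 and 9198 in 5-FU KO libraries, against 5292, 4326, 4263 and 5444 in 5-FU WT libraries, and the groups were far apart (1.78-fold, log2 difference 0.79 ± 0.15 (SE), adjusted p = 0.00281). Cox7c, a small membrane subunit, had 2544, 3227 and 3298 in 5-FU KO libraries, against 1672, 1483, 1310.5 and 1839 in 5-FU WT libraries and was likewise apart (1.92-fold, log2 difference 0.80 ± 0.17 (SE), adjusted p = 0.00525). Cox7a2l, a relative of the Cox7a subunits that is known as an assembly factor of respiratory supercomplexes, was lower in KO cells. It had 6060.0, 6749 and 7226 in 5-FU KO libraries, against 10181, 12109, 14671 and 11293 in 5-FU WT libraries, so that every KO library lay below every WT library (ratio of means 0.55, log2 difference -0.81 ± 0.14 (SE), adjusted p = 0.00154). Untreated libraries, at 11543, 10874 and 11059 in untreated KO libraries, against 9073, 10794 and 13516 in untreated WT libraries, overlapped the 5-FU WT range. One pseudogene copy of Cox7a2l is annotated, and no other gene shares its exons.

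Paralogous genes of complex IV differed among themselves. Cox7a2, the widely expressed Cox7a isoform, had 5489, 6062 and 5835 in 5-FU KO libraries, against 4131, 3045, 3768 and 4605 in 5-FU WT libraries and was higher (1.49-fold, log2 difference 0.55 ± 0.16 (SE), adjusted p = 0.0364), opposite to Cox7a2l. Cox4i1, the common isoform of subunit IV, had 16842, 17740.1 and 20349 in 5-FU KO libraries, against 17013, 15202, 16111 and 17734 in 5-FU WT libraries, with WT A2 and D4 inside the KO range (log2 difference 0.14 ± 0.10 (SE), adjusted p = 0.44). Cox4i2, the isoform known for induction by low oxygen, had 262, 371 and 431 in 5-FU KO libraries, against 1.16, 112, 23.8 and 172 in 5-FU WT libraries, a wide WT spread with 1 read in A2 (4.60-fold, log2 difference 1.04 ± 0.29 (SE), adjusted p = 0.0318), and its call was lost in 8 of 23 alternative settings. Cox6b1 had 10074, 10408 and 11139 in 5-FU KO libraries, against 8497, 5871, 7044 and 8642 in 5-FU WT libraries (1.40-fold, log2 difference 0.48 ± 0.14 (SE), adjusted p = 0.0391), without overlap. Its isoform Cox6b2, known from testis, had 109, 143 and 117 in 5-FU KO libraries, against 255, 182, 207 and 303 in 5-FU WT libraries, with every KO library below every WT library, yet it missed the threshold (log2 difference -0.39 ± 0.20 (SE), adjusted p = 0.231).

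Of the remaining complex IV genes, Cox6c was called higher, with 6374, 6326 and 6425 in 5-FU KO libraries, against 5001, 3662, 3882 and 5199 in 5-FU WT libraries (1.44-fold, log2 difference 0.50 ± 0.15 (SE), adjusted p = 0.0406). Cox8a, the highest nuclear member per kb, had 11282, 11657 and 12643 in 5-FU KO libraries, against 10771, 8198, 8530.3 and 11258 in 5-FU WT libraries, and the KO range began just above the WT maximum (log2 difference 0.29 ± 0.13 (SE), adjusted p = 0.175). Cox7b had 3739.5, 3529 and 3415 in 5-FU KO libraries, against 2407, 1925, 1872 and 3311 in 5-FU WT libraries (log2 difference 0.54 ± 0.18 (SE), adjusted p = 0.0604), without overlap but not called. Cox6a1 had 7588, 7618 and 8226 in 5-FU KO libraries, against 7531, 5616, 4732 and 8556 in 5-FU WT libraries (log2 difference 0.26 ± 0.18 (SE), adjusted p = 0.416), and WT D4 exceeded all KO libraries. Cox5b gave the same picture in WT D4, with a log2 difference of 0.24 (adjusted p = 0.436).

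**Figure D4:**
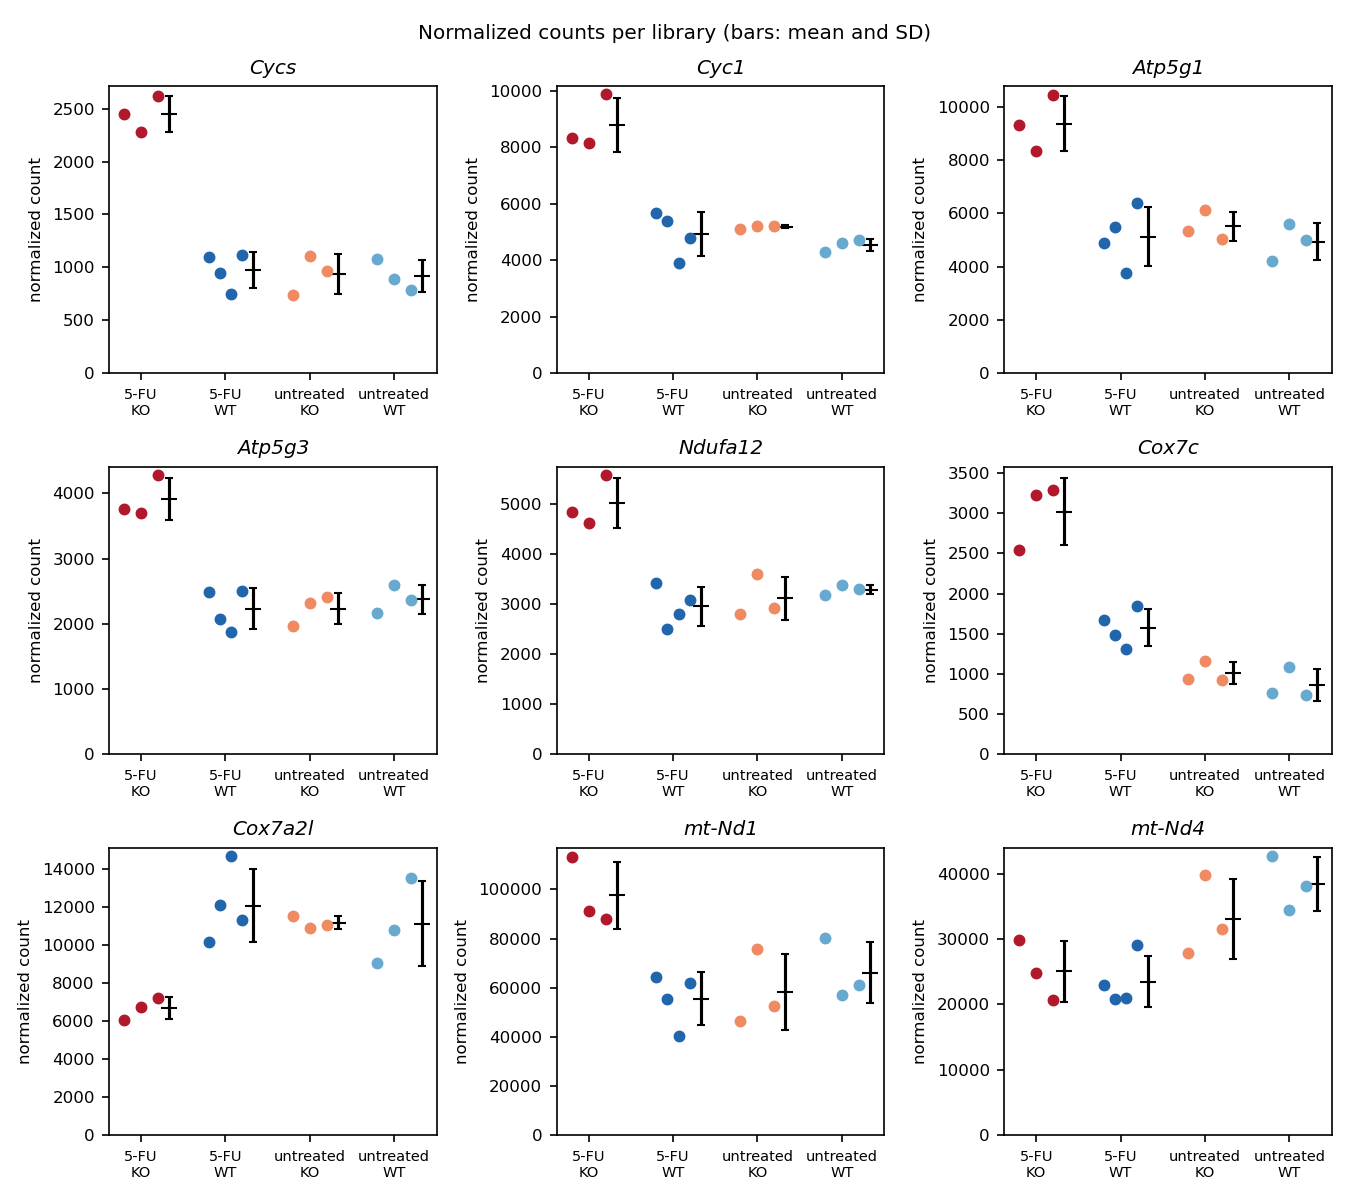
Normalized counts per library of 9 subunit genes, with 1 point per library and bars for the group mean and SD. Cycs, Cyc1, Atp5g1, Atp5g3, Ndufa12 and Cox7c have all 5-FU KO points above all others, Cox7a2l has them below, and mt-Nd4 is lower in both 5-FU groups than in untreated WT libraries.

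In complex V, the higher members covered the catalytic head, the central and peripheral stalks and the c ring. Atp5o, a peripheral stalk subunit, had 11498, 10533 and 11934 in 5-FU KO libraries, against 7148, 6940.5, 6414 and 7448 in 5-FU WT libraries, with tight and separate groups (1.62-fold, log2 difference 0.67 ± 0.11 (SE), adjusted p = 0.00093). Antisense transcripts overlap up to 18.1% of its exon bases. Atp5c1, the gamma subunit of the central stalk, had 19921, 19679 and 21414 in 5-FU KO libraries, against 12915, 14459, 13845 and 14193 in 5-FU WT libraries, also tight and separate (1.47-fold, log2 difference 0.54 ± 0.10 (SE), adjusted p = 0.00216). Atp5f1, subunit b of the peripheral stalk, had 14517, 11742 and 10544 in 5-FU KO libraries, against 7377, 6066, 7259.8 and 7828 in 5-FU WT libraries, with KO A5 the highest of 3 separate KO values (1.72-fold, log2 difference 0.74 ± 0.16 (SE), adjusted p = 0.00518). Of its exon bases, 8.2% overlap Wdr77 on the other strand. The head subunits followed. Atp5a1, subunit alpha, had 19537, 21895 and 25189 in 5-FU KO libraries, against 16872, 13787, 12898 and 12446 in 5-FU WT libraries (1.59-fold, log2 difference 0.65 ± 0.15 (SE), adjusted p = 0.00846), and its call was lost without KO A8. Atp5b, the catalytic subunit beta and the highest nuclear gene of the complex per kb, had 47359, 51733 and 66915 in 5-FU KO libraries, against 34912, 41036, 26387 and 35467 in 5-FU WT libraries (1.61-fold, log2 difference 0.68 ± 0.17 (SE), adjusted p = 0.0181). Groups did not overlap in either, and the call of Atp5b was lost without KO A6, KO A8 or WT A4.

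Subunit c, which forms the membrane rotor, is encoded by 3 genes for the same mature protein. Atp5g1 had 9313, 8356 and 10446 in 5-FU KO libraries, against 4889, 5482, 3746 and 6375 in 5-FU WT libraries, without overlap (1.83-fold, log2 difference 0.84 ± 0.16 (SE), adjusted p = 0.00265). Atp5g3 had 3756, 3700.1 and 4285 in 5-FU KO libraries, against 2481, 2069, 1875 and 2505 in 5-FU WT libraries, also apart (1.75-fold, log2 difference 0.72 ± 0.14 (SE), adjusted p = 0.00343). Atp5g2 had 7914, 8618 and 8094 in 5-FU KO libraries, against 7340.0, 6476, 5745 and 6354 in 5-FU WT libraries; its KO values were above the WT ones by a smaller margin, and it was not called (log2 difference 0.33 ± 0.13 (SE), adjusted p = 0.132). Atp5l, subunit g and the lowest of the complex per kb, had 1297, 1203 and 1090.1 in 5-FU KO libraries, against 1016, 997, 904 and 1253 in 5-FU WT libraries, with overlap (log2 difference 0.16 ± 0.17 (SE), adjusted p = 0.633), and 8 nearly identical pseudogenes. Atp5mpl, a small proteolipid of the complex, had 5132, 5202 and 5132 in 5-FU KO libraries, against 4528, 3604, 3986 and 6023 in 5-FU WT libraries, and WT D4 exceeded the KO libraries (log2 difference 0.20 ± 0.17 (SE), adjusted p = 0.514). The most negative value of the complex was that of Atp5s, a factor that is not a core subunit, at -0.47 (adjusted p = 0.189).

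The 13 mitochondrial genes, read from a polycistronic transcript of each strand, did not move as a group. Of the 13, 9 have a nearly identical pseudogene, and for 7 such a copy is itself in the deposited table. These 7 include mt-Co1, mt-Nd3 and mt-Nd4, and how shared reads were counted is not known. mt-Nd1, a core subunit of the membrane arm of complex I, had 113218, 91303 and 88071 in 5-FU KO libraries, against 64278, 55209.5, 40379 and 62014 in 5-FU WT libraries. All KO libraries were above the WT ones (1.76-fold, log2 difference 0.82 ± 0.18 (SE), adjusted p = 0.00776), but the call was lost without KO A5, the highest. mt-Co1, the catalytic subunit of complex IV, had 288034, 247828 and 260582 in 5-FU KO libraries, against 316809, 350082, 334604 and 340016 in 5-FU WT libraries. All KO libraries were below the WT ones (ratio of means 0.79, log2 difference -0.34 ± 0.09 (SE), adjusted p = 0.0211), and the call was lost without KO A6, KO A8 or WT A3, with only the groups compared in the fit, and under quantile normalization, which sets the top gene of every library to 1 value.

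The other mitochondrial complex I genes did not pass. mt-Nd3 had 1935, 1626 and 1566 in 5-FU KO libraries, against 1200.0, 888, 832 and 1148 in 5-FU WT libraries, without overlap, and came nearest (log2 difference 0.60 ± 0.20 (SE), adjusted p = 0.0689). mt-Nd4l, which also did not overlap, had 6897, 5773 and 6591 in 5-FU KO libraries, against 4345, 5572, 5704 and 4971 in 5-FU WT libraries (log2 difference 0.30 ± 0.16 (SE), adjusted p = 0.256). mt-Nd2 had 10412, 6275 and 5372 in 5-FU KO libraries, against 4541, 3133, 4549 and 6456 in 5-FU WT libraries, with KO A5 well above the rest (log2 difference 0.60 ± 0.26 (SE), adjusted p = 0.154). mt-Nd6, the gene of the light strand, had 3554, 3152 and 1843 in 5-FU KO libraries, against 2626, 1788, 1873 and 2974 in 5-FU WT libraries (log2 difference 0.24 ± 0.25 (SE), adjusted p = 0.604). mt-Nd4 and mt-Nd5 stayed within the spread of the libraries. mt-Nd4 had 29899.5, 24731 and 20601 in 5-FU KO libraries, against 22963, 20804, 20992 and 29099 in 5-FU WT libraries (log2 difference 0.09 ± 0.15 (SE), adjusted p = 0.776), and mt-Nd5 had 37780.2, 34676 and 30725 in 5-FU KO libraries, against 35214, 33099, 33168 and 33721 in 5-FU WT libraries (log2 difference 0.02 ± 0.11 (SE), adjusted p = 0.937).

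Apart from mt-Co1, the mitochondrial genes of the other complexes overlapped between KO and WT after 5-FU. mt-Cytb, cytochrome b of complex III, had 164915, 140054 and 145874 in 5-FU KO libraries, against 144673, 135226, 126661 and 136005 in 5-FU WT libraries (log2 difference 0.15 ± 0.12 (SE), adjusted p = 0.484). mt-Co2, which receives electrons from cytochrome c, had 69474, 62171 and 48654 in 5-FU KO libraries, against 64081, 59405, 62094 and 75735 in 5-FU WT libraries (log2 difference -0.13 ± 0.13 (SE), adjusted p = 0.602). mt-Co3 had 101149, 71850.5 and 74859 in 5-FU KO libraries, against 88236, 97779.6, 90231 and 80578 in 5-FU WT libraries (log2 difference -0.12 ± 0.13 (SE), adjusted p = 0.616). None of these 3 separated the genotypes. mt-Atp6 of the proton channel had 33893, 36425 and 41081 in 5-FU KO libraries, against 33426, 35770.1, 31652 and 45542 in 5-FU WT libraries (log2 difference 0.03 ± 0.17 (SE), adjusted p = 0.939), and mt-Atp8 had 23955, 24375 and 26023 in 5-FU KO libraries, against 25229, 25343, 26416 and 25899 in 5-FU WT libraries (log2 difference -0.05 ± 0.13 (SE), adjusted p = 0.85). The mt-Atp8 and mt-Atp6 genes share 43 bases on the same strand. The ratio of mt-Nd1 to mt-Nd4 counts was 3.92 (3.69 to 4.28) in 5-FU KO and 2.38 (1.92 to 2.80) in 5-FU WT libraries, and 1.74 (1.66 to 1.90) in untreated KO and 1.71 (1.61 to 1.87) in untreated WT libraries. No nearly identical pseudogene of mt-Nd1 was found, while 1 of mt-Nd4 is in the deposited table.

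Of the 36 calls between KO and WT after 5-FU, 15 held in all 23 alternative settings, namely Cycs, Cyc1, Cox7a2l, Cox5a, Cox7c, Sdhd, Ndufv2, Ndufa4, Ndufa12, Ndufb5, Atp5o, Atp5c1, Atp5f1, Atp5g1 and Atp5g3. The count fell to 19, 17 and 16 without KO A5, A6 or A8, to 21 without WT A3 or A4, and was 31 without WT D4, which leaves only libraries labelled 2016. The summed megakaryocyte markers given above moved with this comparison, as 8 of 9 were lower in 5-FU KO than in 5-FU WT libraries, and so did neutrophil markers (sums of 2250 to 2404 in 5-FU KO against 4101 to 5887 in 5-FU WT libraries, with Mpo and Lcn2 at 0 in all 5-FU KO libraries). Sums were also lower without overlap for 9 erythroid genes (3632 to 4171 in 5-FU KO against 5551 to 6827 in 5-FU WT libraries, 3 called lower), 5 monocyte and macrophage genes (8176 to 9141 in 5-FU KO against 14695 to 17886 in 5-FU WT libraries, 1 called) and 3 B cell genes (567 to 825 in 5-FU KO against 1202 to 2020.4 in 5-FU WT libraries, 1 called). The same held for the natural killer cell gene Nkg7 (1697 to 3810.1 in 5-FU KO against 5763 to 6737 in 5-FU WT libraries) and 2 mast cell and basophil genes (up to 667 in 5-FU KO against 1875 to 2257 in 5-FU WT libraries, 1 called), while the sums of 3 stromal and endothelial genes overlapped. The neutrophil sum was mostly Prtn3, with means of 2271 in 5-FU KO and 4033 in 5-FU WT libraries. Mpo and Lcn2 were low in 5-FU WT libraries too, with means of 7.66 and 57.5. The B cell sum was mostly Cd79b, with means of 648 in 5-FU KO and 1378 in 5-FU WT libraries. The monocyte and macrophage sum was mostly Lyz2, with means of 8447.5 in 5-FU KO and 15981 in 5-FU WT libraries. Csf1r, Ly6c2, Cd68 and C1qa had higher means in 5-FU KO libraries, such as Cd68 with 185 against 87.9. Of the erythroid genes, Hbb-bt alone had a higher mean in 5-FU KO libraries, at 2655 against 1530.5. The part of all these markers and of the HSC markers given above, of which 4 of 12 were lower and 1 higher, was not tested. Of the 20 nuclear members with a nearly identical pseudogene 10 were higher, and of the 60 without one 23 were.

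In untreated cells, no member differed between KO and WT at an adjusted p under 0.05 by limma, where 0.0311% of all genes did. At an unadjusted p under 0.05, 6 of the 93 passed, where 1291 of all 12846 genes (10%) did, and limma-voom on the recovered reads also called 0. The nuclear median was 0.14 and the mitochondrial one -0.13. The 3 members with the smallest p were Uqcr11, mt-Nd5 and mt-Nd3. Uqcr11 had 3956, 4617 and 3407 in untreated KO libraries, against 2748, 2720.1 and 2769.6 in untreated WT libraries and did not overlap (log2 difference 0.47 ± 0.17 (SE), adjusted p = 0.347). mt-Nd5 had 28213, 29198 and 30364 in untreated KO libraries, against 37481, 30715 and 37526 in untreated WT libraries, also apart (log2 difference -0.26 ± 0.11 (SE), adjusted p = 0.468). mt-Nd3 had 1079.6, 1900.1 and 1448 in untreated KO libraries, against 701, 1343 and 850.3 in untreated WT libraries, and the groups overlapped (log2 difference 0.48 ± 0.22 (SE), adjusted p = 0.478). In 12 nuclear members every KO library was above every WT library and in 2 below, against 5.88% and 5.67% of all genes.

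In WT cells, 12 members were higher and 1 was lower after 5-FU than in untreated mice, where 3.72% of all genes were higher and 2.96% lower, or 6.68% in either direction. Of nuclear members with a mean count of 2000 to 8000, 13.5% (7 of 52) were higher, against 7.56% of all genes in that range. Complex IV genes were called most often, with 6 of the 13 nuclear ones, against 3 of 36 in complex I, 0 of 4 in complex II, 1 of 9 in complex III and 1 of 17 in complex V. Atp5mpl had 4528, 3604, 3986 and 6023 in 5-FU WT libraries, against 1969, 1537 and 1454 in untreated WT libraries, with every 5-FU library far above the untreated ones (2.74-fold, log2 difference 1.26 ± 0.17 (SE), adjusted p = 0.000189). Ndufa1, an accessory subunit of the complex I membrane arm, had 2173, 1982, 1925 and 2925 in 5-FU WT libraries, against 1004, 963 and 1131 in untreated WT libraries, with D4 highest and no overlap (2.18-fold, log2 difference 0.89 ± 0.17 (SE), adjusted p = 0.00369). Cox6c, which has 2 nearly identical pseudogenes, had 5001, 3662, 3882 and 5199 in 5-FU WT libraries, against 2545, 2599 and 2437 in untreated WT libraries, also apart (1.76-fold, log2 difference 0.71 ± 0.15 (SE), adjusted p = 0.00799). These 3 calls held in all 23 alternative settings. In 24 nuclear members every 5-FU WT library was above every untreated WT library and in 3 below, against 8.8% and 7.92% of all genes.

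The other higher complex IV genes in WT cells after 5-FU were Cox8a, Cox6b1, Cox7c, Cox4i1 and Cox7a2. Cox8a had 10771, 8198, 8530.3 and 11258 in 5-FU WT libraries, against 5889, 6846 and 6151 in untreated WT libraries (1.54-fold, log2 difference 0.58 ± 0.13 (SE), adjusted p = 0.0129). Cox6b1 had 8497, 5871, 7044 and 8642 in 5-FU WT libraries, against 5317, 4114 and 4924 in untreated WT libraries (1.57-fold, log2 difference 0.60 ± 0.14 (SE), adjusted p = 0.0169). Neither overlapped. Cox7c had 1672, 1483, 1310.5 and 1839 in 5-FU WT libraries, against 760.4, 1088 and 729.9 in untreated WT libraries (1.83-fold, log2 difference 0.68 ± 0.17 (SE), adjusted p = 0.0226), and Cox4i1 had 17013, 15202, 16111 and 17734 in 5-FU WT libraries, against 12598, 12688 and 11899 in untreated WT libraries (1.33-fold, log2 difference 0.40 ± 0.10 (SE), adjusted p = 0.0297). Every 5-FU WT library was above the untreated WT ones in both. Cox7a2 had 4131, 3045, 3768 and 4605 in 5-FU WT libraries, against 2401, 2268 and 2576 in untreated WT libraries (1.61-fold, log2 difference 0.60 ± 0.16 (SE), adjusted p = 0.0307). Uqcrh of complex III had 7944, 6441, 8410.5 and 9572 in 5-FU WT libraries, against 5824, 4947 and 5074 in untreated WT libraries (1.53-fold, log2 difference 0.57 ± 0.14 (SE), adjusted p = 0.0192), and its groups were apart. Ndufa2 and Ndufa6 had log2 differences of 0.57 and 0.54 (adjusted p = 0.0335 and 0.0418).

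Of the mitochondrial genes in WT cells, mt-Nd4 was lower after 5-FU, with 22963, 20804, 20992 and 29099 in 5-FU WT libraries, against 42769, 34414 and 38117 in untreated WT libraries. No 5-FU WT library reached the untreated WT range (ratio of means 0.61, log2 difference -0.71 ± 0.15 (SE), adjusted p = 0.0106). mt-Atp8 was higher, with 25229, 25343, 26416 and 25899 in 5-FU WT libraries, against 19771, 15987 and 19265 in untreated WT libraries, without overlap (1.40-fold, log2 difference 0.48 ± 0.13 (SE), adjusted p = 0.0309). The count of 13 calls in WT cells became 5 without 5-FU WT D4, 7 without untreated WT D2 or D3, and 4 when the fit held only both WT groups. Megakaryocyte markers were higher in 8 of 9 genes in this comparison as well, and HSC markers lower in 5 and higher in 1 of 12. Erythroid sums were 5551 to 6827 in 5-FU WT against 1588 to 2562 in untreated WT libraries, with 2 genes higher, and 2 of 8 neutrophil genes were higher, with overlapping sums. Nkg7 had 5763 to 6737 in 5-FU WT against 1763 to 4435 in untreated WT libraries, and the mast cell and basophil sums were 1875 to 2257 in 5-FU WT against 172.5 to 1299 in untreated WT libraries. The part of these markers was not tested.

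In KO cells, 34 members were higher and 1 was lower after 5-FU than in untreated mice, where 2.78% of all genes were higher and 3.14% lower, or 5.92% in either direction. At a mean count of 2000 to 8000, 40.4% (21 of 52) of nuclear members and 10.4% of all genes were higher. The nuclear median log2 difference was 0.50, the mitochondrial one 0.19 and that of all genes -0.01. In 63 of the 80 nuclear members every 5-FU KO library was above every untreated KO library and in 1 below, against 14.2% and 14.6% of all genes. Higher calls numbered 11 of 36 in complex I, 0 of 4 in complex II, 5 of 9 in complex III, 8 of 13 in complex IV and 7 of 17 in complex V, and Cycs. Cox7c changed most, with 2544, 3227 and 3298 in 5-FU KO libraries, against 935, 1164 and 923 in untreated KO libraries (3.00-fold, log2 difference 1.30 ± 0.18 (SE), adjusted p = 0.000678). Cycs had 2447, 2279 and 2619.8 in 5-FU KO libraries, against 734, 1105 and 967 in untreated KO libraries (2.62-fold, log2 difference 1.13 ± 0.18 (SE), adjusted p = 0.0019). In neither did the groups come near each other. Atp5mpl had 5132, 5202 and 5132 in 5-FU KO libraries, against 1898, 2485 and 2310.1 in untreated KO libraries, with 5-FU values that were almost equal (2.31-fold, log2 difference 1.09 ± 0.18 (SE), adjusted p = 0.0019).

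Further members that changed in KO cells belonged to complexes I, III, IV and V. Cox5a had 8105, 8447 and 9198 in 5-FU KO libraries, against 4095, 5192 and 3134 in untreated KO libraries (2.07-fold, log2 difference 1.01 ± 0.16 (SE), adjusted p = 0.00182). Ndufa4 had 8792, 9466 and 8759.6 in 5-FU KO libraries, against 3815, 4816 and 4335 in untreated KO libraries (2.08-fold, log2 difference 1.00 ± 0.16 (SE), adjusted p = 0.00182). Ndufb5 had 3813, 3792 and 3726 in 5-FU KO libraries, against 1635, 1896 and 2131 in untreated KO libraries (2.00-fold, log2 difference 0.88 ± 0.16 (SE), adjusted p = 0.00354). Each of these 3 genes separated the groups fully. Cox7a2 had 5489, 6062 and 5835 in 5-FU KO libraries, against 2423, 3812 and 2840.1 in untreated KO libraries (1.92-fold, log2 difference 0.88 ± 0.17 (SE), adjusted p = 0.00535), and Uqcr10 had 3602, 3806 and 3739.8 in 5-FU KO libraries, against 1784, 2407 and 1492 in untreated KO libraries (1.96-fold, log2 difference 0.87 ± 0.20 (SE), adjusted p = 0.0172). Cox7a2l was the lower gene, with 6060.0, 6749 and 7226 in 5-FU KO libraries, against 11543, 10874 and 11059 in untreated KO libraries and a narrow untreated range well above the 5-FU one (ratio of means 0.60, log2 difference -0.71 ± 0.15 (SE), adjusted p = 0.011). mt-Nd1 had 113218, 91303 and 88071 in 5-FU KO libraries, against 46234, 75609 and 52401 in untreated KO libraries (1.68-fold, log2 difference 0.77 ± 0.20 (SE), adjusted p = 0.0268), and mt-Atp8 had 23955, 24375 and 26023 in 5-FU KO libraries, against 13682, 20639.8 and 15437 in untreated KO libraries (1.49-fold, log2 difference 0.59 ± 0.14 (SE), adjusted p = 0.017). Both mitochondrial genes separated the groups, and untreated KO D5 came nearest.

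All 5-FU KO libraries are labelled 2016 and all untreated KO libraries 2015, so 5-FU and acquisition date cannot be told apart in KO cells from these groups. With a date term, which rests on WT D4 alone among 5-FU libraries, 1 of the 35 calls remained, that of Atp5mpl. The count was 17, 18 and 17 without 5-FU KO A5, A6 or A8, and 14 and 17 without untreated KO D4 or D6. Megakaryocyte markers gave 0 calls of 9 in this comparison, and HSC markers 4 lower of 12. Erythroid sums were 3632 to 4171 in 5-FU KO against 1137 to 2466 in untreated KO libraries, with 1 gene called higher. The rise was mostly in Hbb-bt, with means of 2655 in 5-FU KO and 480 in untreated KO libraries. Klf1, Rhag, Hba-a1 and Hba-a2 had lower means in 5-FU KO libraries, and Hbb-bs, Epor and Alas2 higher ones. Sums were 2250 to 2404 in 5-FU KO against 4611 to 4956 in untreated KO libraries for neutrophil genes, 8176 to 9141 in 5-FU KO against 15609.9 to 17857 in untreated KO libraries for monocyte and macrophage genes, and 567 to 825 in 5-FU KO against 1245 to 1662 in untreated KO libraries for B cell genes. The neutrophil sum was again mostly Prtn3, with means of 2271 in 5-FU KO and 4400 in untreated KO libraries. The B cell sum was again mostly Cd79b, with means of 648 in 5-FU KO and 1381 in untreated KO libraries. Elane and Ebf1 had higher means in 5-FU KO libraries. The monocyte and macrophage sum was again mostly Lyz2, with means of 8447.5 in 5-FU KO and 16480 in untreated KO libraries. Cd68 was also lower, while Csf1r, Ly6c2 and C1qa had higher means in 5-FU KO libraries. The part of all these markers was not tested.

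The genotype difference after 5-FU was then tested against that in untreated cells, as an interaction in the same fit. It was positive for 4 members and negative for 1 at an adjusted p under 0.05, where it was positive for 1.04% and negative for 1.8% of all genes, or 2.84% in either direction. At like levels the shares were closer. Of nuclear members with a mean count of 2000 to 8000 it was positive for 3.85% (2 of 52), against 4.0% of all genes in that range, and of those above 8000 for 0 of 8, against 4.59%. At 500 to 2000 it was positive for 5.56% (1 of 18), against 1.03%. For Cycs the KO minus WT log2 difference was 1.08 after 5-FU and 0.02 in untreated cells (interaction 1.06 ± 0.25 (SE), adjusted p = 0.0305). For mt-Nd1 it was 0.82 after 5-FU and -0.20 in untreated cells (interaction 1.02 ± 0.27, adjusted p = 0.0489). For Atp5g3 it was 0.72 after 5-FU and -0.08 in untreated cells (interaction 0.80 ± 0.21, adjusted p = 0.0494). These genes were higher in KO after 5-FU and near or below the WT level in untreated cells. For Ndufa12 the differences were 0.70 after 5-FU and -0.08 in untreated cells (interaction 0.78 ± 0.20, adjusted p = 0.0495). For Cox7a2l they were -0.81 after 5-FU and 0.02 in untreated cells (interaction -0.83 ± 0.21, adjusted p = 0.0444). The median interaction was 0.25 over nuclear and 0.12 over mitochondrial members. The other 88 members showed no interaction past the threshold, which does not show that their genotype differences were alike in both treatments. The count of 5 was 0 when any single 5-FU KO library was left out, and also without 5-FU WT A3 or A4, or without untreated KO D4 or D6, and no gene kept its call in all settings.

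Coding length divided the nuclear members differently in each comparison. Of those with a coding length of up to 400 bases, 10 of 36 were higher in 5-FU WT than in untreated WT libraries (median 0.46), against 1 of 29 with 400 to 800 bases (median 0.12) and 0 of 15 above (median 0.03). Over all protein-coding genes tested 79 of 663, 101 of 2170 and 267 of 9140 were higher, from the shortest to the longest class (medians 0.14, -0.01 and -0.02). In 5-FU KO against untreated KO libraries, 18 of 36, 10 of 29 and 4 of 15 were higher, from the shortest to the longest class (medians 0.59, 0.44 and 0.33), against 66 of 663, 95 of 2170 and 171 of 9140 of all protein-coding genes. In 5-FU KO against 5-FU WT libraries, 12 of 36, 11 of 29 and 10 of 15 were higher (medians 0.46, 0.32 and 0.52), against 55 of 663, 170 of 2170 and 425 of 9140 of all protein-coding genes. The nearly alike libraries A3 and D4 of the 5-FU WT group also differed by length. All 36 short nuclear members were higher in D4 than in A3 (median log2 difference 0.54, against 472 of 663 short protein-coding genes with 0.12), as were 23 of 29 in the middle class, while 2 of the 15 long ones were (median -0.14). The part of this library difference in the WT values after 5-FU was not tested beyond the counts without D4 given above.

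**Figure D5:**
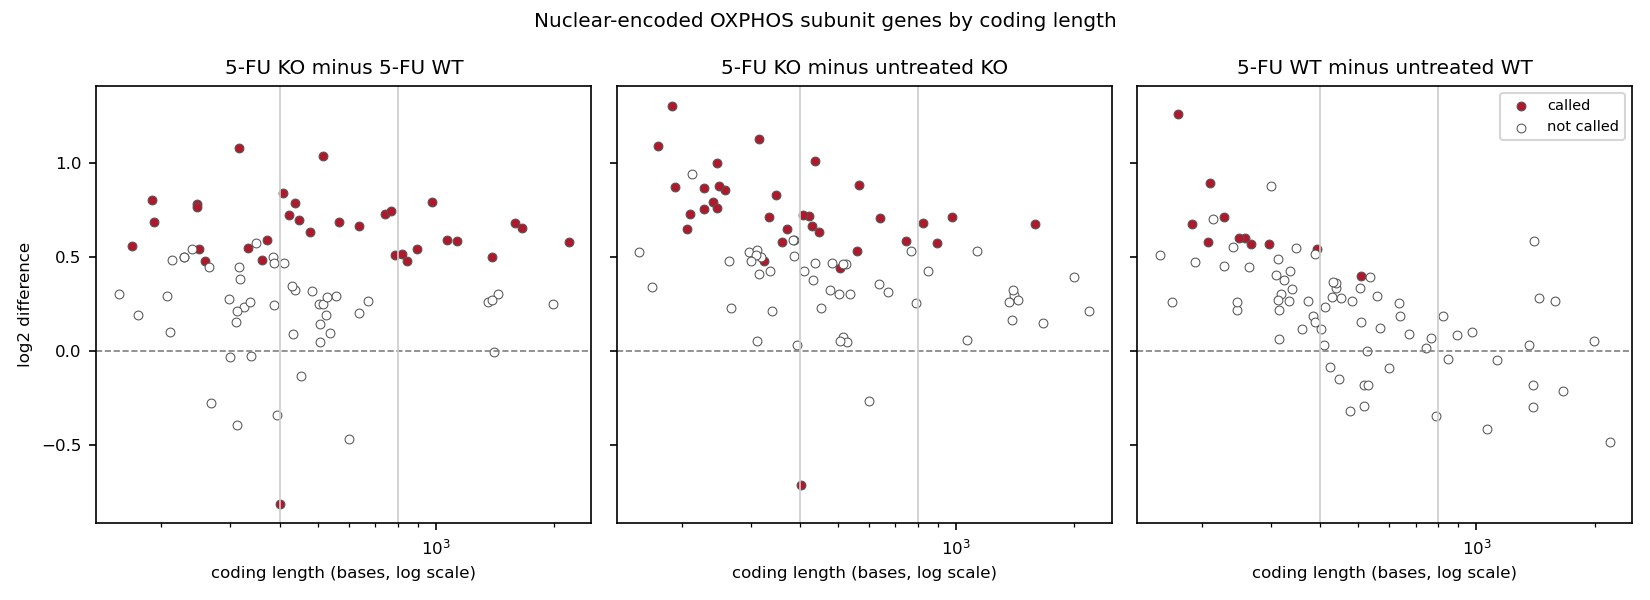
Log2 difference of the 80 nuclear members against coding length (log axis, lines at 400 and 800 bases) in 3 comparisons, filled red where called. In 5-FU WT against untreated WT the 11 called genes lie to the left, with 10 of them at up to 400 bases, whereas in 5-FU KO against 5-FU WT called genes occur at all lengths, 10 of them among the 15 longest.

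Genes around the respiratory chain were counted for comparison in KO against WT cells after 5-FU, where 5.36% of all genes were higher and 5.5% lower, and 20.4% of those with a mean count of 2000 to 8000 were higher. The lists, too, were chosen with earlier results of these data known. Of 27 genes of mitochondrial protein import and folding, 11 were higher and 0 lower. Hspd1, the mitochondrial chaperonin, had a log2 difference of 1.37 (adjusted p = 4.24e-05), its partner Hspe1 1.18 (adjusted p = 0.000115) and Tomm40, the outer membrane channel, 1.26 (adjusted p = 0.00133). Of 22 genes of the tricarboxylic acid cycle and pyruvate dehydrogenase, 7 were higher and 1 lower. Mdh2, malate dehydrogenase, was higher by 0.95 (adjusted p = 0.000731) and Idh3a, of NAD-dependent isocitrate dehydrogenase, by 0.98 (adjusted p = 0.00131). Pdk2, a kinase that inhibits pyruvate dehydrogenase, was lower, at -1.67 (adjusted p = 0.000439).

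Factors that build the complexes or express mitochondrial DNA were called at shares near those of all genes. Of 17 assembly factors of complex I, 1 was higher (Ndufaf4, log2 difference 0.79, adjusted p = 0.0150), and of 34 of complexes II to V 1 was higher (Cox18) and 2 were lower (Uqcc3 and Cox14). Of 29 genes of mitochondrial DNA replication, transcription and RNA handling, 1 was higher, the exonuclease gene Rexo2 (log2 difference 0.64, adjusted p = 0.00945). None of 10 nuclear regulators of mitochondrial genes, among them Nrf1, Gabpa, Ppargc1a and Myc, was called, and 0 of the 10 passed an unadjusted p under 0.05. Over all genes 10.9% were called and 24.8% passed the unadjusted p, and nothing is read from a count of 0 among 10 genes. A further list held 5 genes of subunits or associated factors whose names fall outside the symbol rule (Ndufab1, Usmg5, Cox20, Higd1a and Higd2a). Of these Ndufab1, the acyl carrier protein, was higher (log2 difference 0.70, adjusted p = 0.00976). The medians of these lists were 0.54 for import, 0.39 for the tricarboxylic acid cycle, 0.20 and 0.14 for the assembly factors, 0.12 for mitochondrial DNA expression and 0.23 for the regulators.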

How the data were processed

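The deposited table holds 1 value per gene and library on a log2 scale, made by the authors with DESeq2 after trimming with Trimmomatic and alignment with Bowtie 1.1.1 to mm10, per the submitters' processing notes. No label names the counting tool, the annotation or the strand setting. The values behave as variance-stabilized counts: inverting that transformation gave whole reads for 100.0% of values within 0.1, after which normalized counts, read totals and shares were computed. Read totals of 11416753 to 45384866 set the precision, and intervals between libraries cover more than counting error.

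Symbols came from GENCODE M21 (13069 identifiers with a symbol, 132 without). limma 3.58.1 (R 4.3.3) fitted 1 mean per group over all 13 libraries to the deposited log2 values of the 12846 genes that reached 10 normalized counts in 3 or more libraries, with empirical Bayes trend (9 residual and 7.67 prior degrees of freedom). P-values were adjusted by Benjamini-Hochberg over all genes tested. The procedure was tested on simulated data. Tables and figures were made with Python 3.11.15, pandas 2.3.3 and matplotlib 3.10.9. Alternatives were other filters, scalings, a log2 scale with a pseudocount of 1, limma-voom on recovered reads, the date term, the alike pair averaged and leaving out each library.

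Genes named with full values were every mitochondrial member, up to 8 called members per comparison and direction, the highest and lowest per kb of each complex, paralogues, and, where none was called, the 3 with the smallest p. Other members named with values, such as Ndufv2, Ndufv1, Ndufs1, Ndufs6, Sdha, Sdhb, Uqcrfs1, Atp5a1, Atp5b, Atp5c1, Atp5f1, Atp5o and Atp5s, were chosen for their roles after their values were seen. The NRF1 letters were shortened by 1 base after a first search. The members and lists were chosen with earlier results of these data known.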

Additional observations from a re-analysis of the deposited data

Results flagged for a closer look

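Sdhc in 5-FU WT D4 stood at 2719 normalized counts, apart from 1729, 1857 and 1732 in A2, A3 and A4, by a gap test on the 4 libraries of that group. The gap test covered the 42 genes of the naming rule in the group of 4, and chance marks about 1 in 20 groups. For 5 genes the KO minus WT difference after 5-FU differed from that in untreated cells by the interaction test. On the log2 scale the interaction was 1.06 for Cycs, -0.83 for Cox7a2l, 1.02 for mt-Nd1, 0.80 for Atp5g3 and 0.78 for Ndufa12.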

How the results depend on the processing

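The count of 36 members called between KO and WT after 5-FU became 22 under quantile normalization and 22 with limma-voom, and 16 to 37 when 1 library was left out. The count of 13 in WT cells after 5-FU became 8 with a date term and 4 with only the groups compared, and 5 to 14 with 1 library left out. The count of 35 in KO cells became 1 with the date term and 14 to 38 with 1 library left out. The interaction count of 5 became 3 with a count minimum of 50 or with no filter, 1 on the log2 scale of normalized counts plus 1, 1 with the alike pair averaged, 2 with the date term and 0 to 6 with 1 library left out. In untreated cells the count was 0 in every setting run. The cause of these changes was not tested, except that leaving out a library leaves fewer samples. No called member changed sign in any setting; quantile normalization set mt-Co1 to 0. Median log2 differences kept within the spread between libraries, apart from 3 under the date term, the nuclear median at 0.44 in WT cells and 0.72 in KO cells and the mitochondrial one at 0.38 in KO cells. Of the alternative values for named calls, 1060 passed the threshold and 223 missed it. No paired analysis was possible because the groups compared share fewer than 2 replicate names. Counting depth did not limit the members, which apart from Cox4i2 and Cox6b2 lay far above the limit of 3 reads in each library.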
